A study of Mus musculus with 2 samples.

Results

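The Vegfa locus was defined as the 250 kb of mouse chromosome 17 from 46050001 to 46300000 (mm9) that holds the gene for vascular endothelial growth factor A. Of the 34534 Ebf1 peaks listed for the genome, 28 had their centre in this window, out of 1713 on chromosome 17. They came from 1 chromatin immunoprecipitation sequencing (ChIP-seq) library of 3T3-L1 cells, mouse fibroblasts that were turned into mature adipocytes with the hormone mixture MDI. Cells were fixed in 1% formaldehyde at day 10 after MDI was added, the labels name no genotype or other treatment, and chromatin was pulled down with an antibody against Ebf1. The labels describe a second library, a whole cell extract of the same cells made without antibody, whose values were not analysed here. There was thus no replicate and no column labelled as a control, and every value below describes this one list. The members were chosen by the position of their centres, in a window selected on the positions and scores of this same list, so counts, positions and scores are descriptions with no test. The labels give the cells as 3T3L1, and a peak list holds no expression values by which to check that.

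Vegfa codes for a secreted growth factor that binds receptors on endothelial cells and drives the growth of new blood vessels, and adipocytes are known to secrete it as fat tissue expands. Ebf1 is a helix-loop-helix transcription factor of B cells and adipocytes that binds DNA as a dimer, at palindromic sites with the core CCCNNGGG. The gene lies on the minus strand. Its start is at about 46.169 Mb and its end at about 46.154 Mb, each known here to 1 kb, so that upstream means higher coordinates and distances to the gene may be off by 0.5 kb. In the RefSeq gene table of GRCm38, used only for the order of genes, the next genes on the upstream side are the pseudogene Gm19969, Mrps18a (a protein of the mitochondrial ribosome), Rsph9 (a radial spoke protein of cilia), Mad2l1bp (which acts on the mitotic checkpoint) and Gtpbp2 (a GTP-binding protein). On the downstream side the table lists 5 long noncoding RNA genes in a row, Gm36122 being the nearest to Vegfa. Where the peaks lie relative to these neighbours was not analysed here, and no peak was assigned to Vegfa as its target.

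No peak covered the Vegfa start. The nearest peak on the upstream side, from 46170601 to 46170825, was centred about 2 kb before it, and the nearest on the gene side, from 46164451 to 46164825, about 4 kb after it. The promoter is shown because it holds the letters of the Ebf core although no peak was listed there. These are the 250 bases before the first start in the RefSeq promoter table (GRCm38.p6, minus strand), with the core match in capitals.
Vegfa promoter: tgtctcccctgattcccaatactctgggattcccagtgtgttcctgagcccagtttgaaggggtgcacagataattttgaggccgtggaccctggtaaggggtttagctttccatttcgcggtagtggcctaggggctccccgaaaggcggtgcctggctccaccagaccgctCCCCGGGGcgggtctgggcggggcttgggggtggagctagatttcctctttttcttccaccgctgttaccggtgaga
The 1 match to CCCNNGGG, CCCCGGGG, ran from 77 to 70 bases before the start. The core reads the same on both strands. The longer palindrome, the core with a T directly before it and an A directly after it, had 0 matches. Among the 32851 promoters of that table, cut to the same length, 11.8% held the core and 0.779% the longer form. The table lists a second, internal Vegfa start, before which neither form was found. A match is a run of letters and not a measured site. The sequences under the peaks themselves were not used here, since no mm9 sequence was at hand.

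Ebf1 peaks surrounded the gene on both sides, and the highest scores lay past its 3′ end. Of the 28 peaks, 10 were downstream of the gene, 5 within it and 13 upstream. The sides of the window differ in length, 103999 bp downstream and 131000 bp upstream. Per 10 kb they held 0.96 and 0.99 peaks. The score is the first of 2 whole-number columns that the authors deposited for each peak. Neither column is explained in the sources used here, and whether either relates to reads of the ChIP or of the whole cell extract is not known. It ranged from 7 to 218 at the locus with a median of 16.5, against a median of 13 in the whole list and 12 on chromosome 17. A score of 55 or more, which takes in 10.2% of the list and is called strong here, was reached by 4 of the 28 peaks, or 14.3%. The window was selected on these scores, so nothing is read from the difference. A score at or above the list median was held by 17 of the 28, or 60.7%, beside 50.6% of the list.

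**Figure D1:**
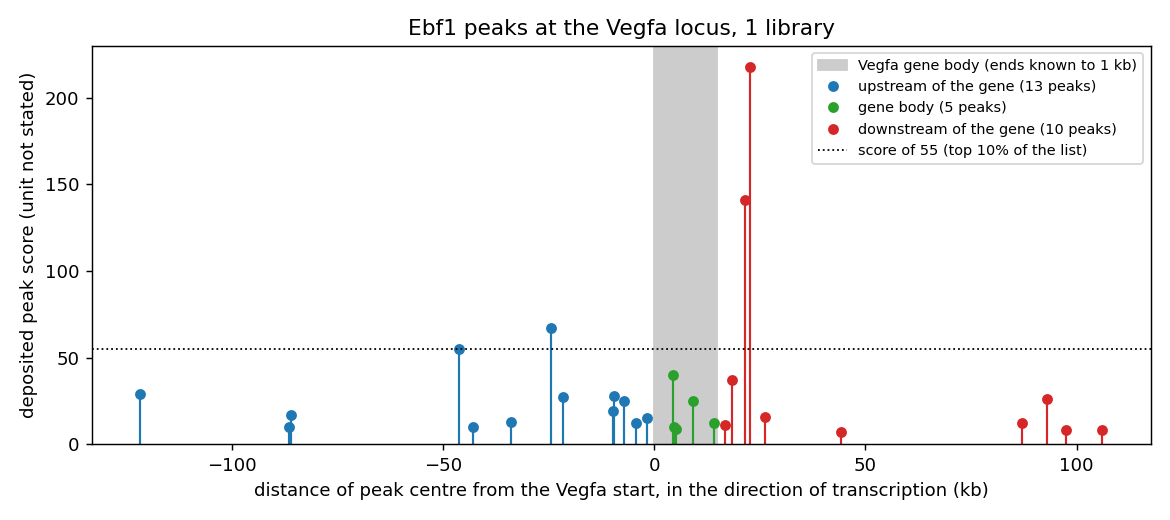
Deposited score of each of the 28 Ebf1 peaks (vertical axis, unit not stated) against the distance of its centre from the Vegfa start in the direction of transcription (horizontal axis, kb), with the gene body shaded and the strong score of 55 dotted. The pair just past the end of the gene, at 218 and 141, stands above all other peaks, which score 67 or less.

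The strongest peak of the locus lay from 46145826 to 46146575, about 8 kb past the 3′ end of Vegfa. Its score of 218 was 16.8 times the list median and ranked 100th of 34534. Beside it, from 46147101 to 46147875 and about 7 kb past the end, a second peak scored 141, rank 499 in the list. A gap of 525 bp separated them, and their centres lay 1288 bp apart. In the list, 4080 neighbouring pairs had centres within 2 kb. Both peaks were strong in 62 of these pairs, and both scored 100 or more in 10, a round score chosen after the values were seen that 1214 single peaks of the list reached. By the lower of its 2 scores the Vegfa pair ranked 5th among the 4080. The pair was taken as the 2 highest peaks of a window selected on these scores. The 2 kb limit was set with earlier results known, so nothing is read from the rank. The pair carried 39.6% of the summed score of the locus, and the other 26 peaks had a median score of 15.5.

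Another 3 peaks lay in the same stretch between the gene end and 15 kb past it. Toward the gene, the peak from 46150326 to 46150900 scored 37 at about 3 kb from the end, and the peak from 46152101 to 46152400 scored 11 at about 2 kb. On the far side of the pair, the peak from 46142501 to 46142850 scored 16. Beyond these the downstream side thinned out. A lone peak from 46124601 to 46124825, with the lowest score of the locus, 7, lay about 29 kb from the gene end. No peak was listed in the 42.5 kb between it and the next group. That group of 4, from 46062776 to 46082125, lay 72 to 91 kb past the gene and scored 8, 8, 26 and 12 in order of rising coordinate.

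Within Vegfa itself all 5 peaks scored below the strong threshold, which 10.2% of the list reached. With so few peaks nothing is read from that. The highest was the one from 46164451 to 46164825, about 4 kb after the start, with a score of 40. It stood at the end of a run of 3 peaks over the same part of the gene. The other peaks of the run, from 46163526 to 46163825 and from 46164076 to 46164300, scored 9 and 10, and gaps of 250 and 150 bp separated the 3. The peak from 46159601 to 46160150, about 9 kb after the start, scored 25. The last, from 46154651 to 46154925, lay inside the gene about 1 kb from its end and scored 12. Exons and introns were not placed, as no mm9 annotation was used.

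Upstream of Vegfa the scores were lower than in the downstream pair, and the strong peaks lay farther from the gene. Within 15 kb of the start there were 5, with scores of 15, 12, 25, 28 and 19 with rising distance. The last 2, from 46178326 to 46178625 and from 46178651 to 46179000, were only 25 bp apart, the smallest gap in the list, shared by 185 pairs. The strongest upstream peak lay about 24 kb before the start, from 46193026 to 46193875, with a score of 67. At 850 bp it was also the widest peak of the locus. The other strong upstream peak, from 46214876 to 46215450 and about 46 kb before the start, scored exactly 55, the threshold itself. Between about 22 and 43 kb before the start lay 3 further peaks beside these, with scores of 27, 13 and 10. Farther out, 2 peaks 150 bp apart from 46254851 to 46255625 scored 17 and 10, and the last, from 46290426 to 46290800, scored 29. The stretches between these, of 39.4 and 34.8 kb, held no peak.

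The density of peaks was the same over the gene and its immediate flanks. The 15 kb gene body, the first 15 kb downstream and the first 15 kb upstream held 5 peaks each, or 3.33 per 10 kb, against 1.12 per 10 kb over the whole window. The scores were not alike. Downstream the 5 had a median of 37 and summed to 423, in the gene a median of 12 and a sum of 96, and upstream a median of 19 and a sum of 99. Peaks covered 18.3% of the bases in the downstream stretch, 11.5% in the gene and 10.3% in the upstream stretch. With 5 peaks in each and no replicate, the differences have no error estimate. Over the full sides of the window the order of the medians turned. The 10 downstream peaks had a median of 14, with 5 at or above the list median, and the 13 upstream peaks a median of 19, with 10 at or above it. The summed score stayed higher downstream, at 484 against 327, 359 of it from the strong pair.

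The scores lay on both sides of what peaks of the same width had elsewhere in the list. Over most widths of the list the median score rises with width, though not evenly above 700 bp, so each peak was set beside all peaks of its own width. Of the 28, 14 scored above the median of their width, 2 at it and 12 below. The peak of 218 is 750 bp wide, and 92.9% of the 154 peaks of that width scored lower. The peak of 141, 775 bp wide, was above 71.3% of the 129 peaks of its width. By this measure some smaller peaks stood out more. The intragenic peak with a score of 40 is 375 bp wide and exceeded 99.3% of 2104 peaks, whose median score was 18. The upstream peak with a score of 28, at 300 bp, exceeded 99.6% of 2040. The peak nearest to the start, with a score of 15 at 225 bp, exceeded 97.7% of 3892. The peaks of 28 and 40 lay only 25 and 150 bp from a neighbouring peak. Their standing for width depends on their being listed apart from that neighbour. Whether each is a separate region was not tested.

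Other peaks were broad for their score. The intragenic peak with a score of 25 spans 550 bp, a width at which the median was 54, and 3.41% of the 791 peaks of that width scored lower. The intragenic peak with a score of 9 spans 300 bp. Of the peaks of its width 1.27% were lower, and 8.38% were at or below its score. The upstream peak with a score of 67 was among the lower ones at 850 bp, where the median of 76 peaks was 127 and 13.2% were lower. The downstream peak with a score of 37, at 575 bp, was above 12.4% of the 687 peaks of its width. High and low positions for width thus occurred side by side within the gene. Of the 28 peaks, 5 were above the upper quartile of their width and 5 below the lower one. How much of the whole list lies past the quartiles or the median of its width was not counted, and tied scores are common. Nothing is therefore read from these counts, or from those against the median.

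**Figure D2:**
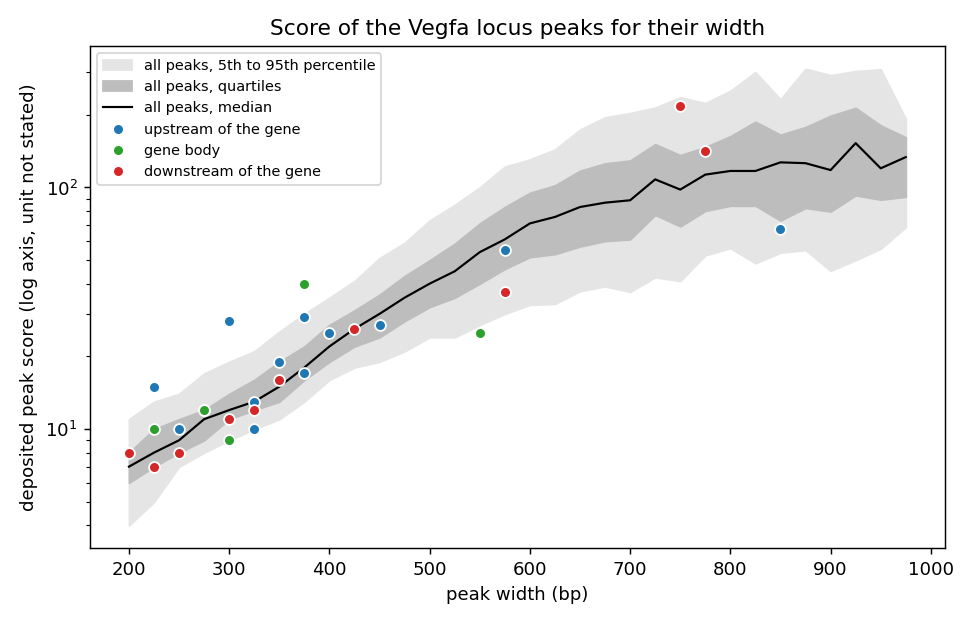
Deposited score (vertical log axis, unit not stated) against peak width (horizontal axis, bp) for the 28 Vegfa locus peaks as points, coloured by their place relative to the gene, over the median, quartiles and 5th to 95th percentiles of all 34534 peaks at each width. The 40, 28 and 15 lie above the light band at their widths, and the intragenic 25 at 550 bp lies below it.

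The second deposited column, a whole number whose meaning is also not stated, ran from 0 to 5 at the locus and had a median of 2, against a median of 1 and a range of 0 to 15 in the list. It was 0 at 8 of the 28 peaks, or 28.6%, and at 29.8% of the list. Both peaks of the strong downstream pair had a 3. The highest value, 5, was held by the downstream peak with a score of 37 and the upstream peak with a score of 55. The upstream peak with a score of 67 had a 0. Among the 20 peaks of its width with a score from 0.8 to 1.2 times its own, itself included, the median second value was 3, and 4 were at 0. The downstream peak with a score of 16 had a 4, which 8.71% of 1228 peaks of the same width and like score reached or passed. A high score and a high second value did not go together at every peak of the locus.

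**Figure D3:**
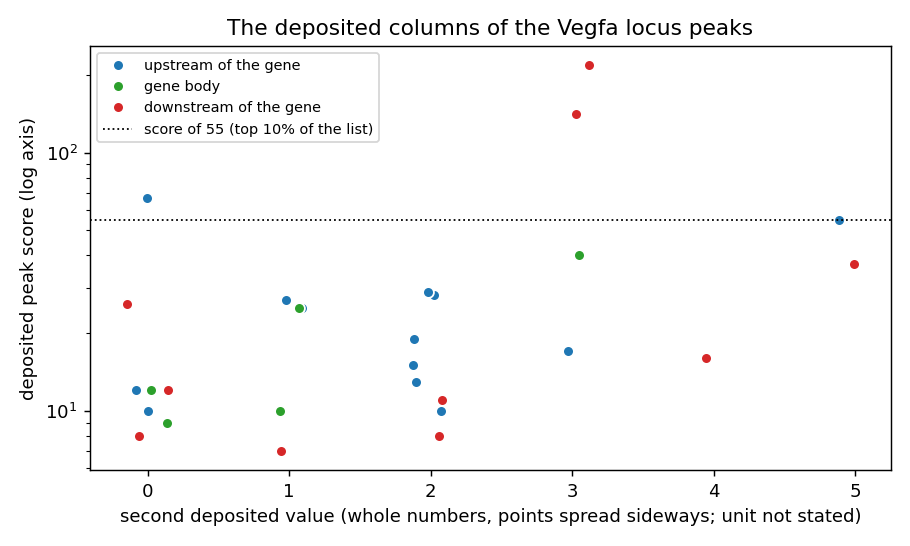
Deposited score (vertical log axis) against the second deposited value (horizontal axis, whole numbers with points spread sideways) for the 28 Vegfa locus peaks, coloured by their place relative to the gene. The strong pair sits at 3, while the upstream peak with a score of 67 sits at 0.

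Peaks at the locus were closely spaced. Inside the window neighbouring centres lay a median of 3525 bp apart, against 21831 bp in the list. The window was selected on these positions and its length bounds the distances, so nothing is read from the difference. With neighbours joined up to a distance of 10 kb between centres, 15 of the 28 fell into 1 cluster from 46142501 to 46179000, which spans 36.5 kb, includes the whole gene and holds the strong pair. This extent rests on the joining distance: at 5 kb the largest cluster held 6 peaks, from 46142501 to 46154925, and reached only the 3′ end of the gene. A second cluster of 5, from 46190326 to 46215450, held the other 2 strong peaks. The group of 4 far downstream and the pair far upstream made 2 more clusters, and 2 peaks stood alone. The list held 6105 clusters of at least 2 peaks on chromosomes 1 to 19 and X, and 24 of them, the Vegfa cluster included, had 15 or more. Of the other 23, 14 had no strong peak, 8 had at least 2 as the Vegfa cluster did, 5 had a higher median score and 2 had a higher top score than 218. The summed score of the Vegfa cluster, 618, ranked 9th among all clusters.

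The Vegfa window ranked higher by its number of peaks than by its number of strong peaks. Windows of 250 kb with at least 1 peak numbered 7318 on chromosomes 1 to 19 and X, and held a median of 3 peaks. With 28 the Vegfa window ranked 26th, and on chromosome 17 it held the most of 294 windows. Its summed score of 907 ranked 24th in the genome and 4th on chromosome 17, against a median window of 57. Peaks covered 10975 bp of it, 4.39% of its length, which ranked 15th. By strong peaks it ranked 48th, and 123 other windows held 4 or more. Crowded windows varied in how many strong peaks they held. Of the 27 others with at least 28 peaks, 14 held no strong peak, 5 held at least 4, and 3 had a higher median score than 16.5. Only 1 of the 27 had a peak above 218. Among the wider set of 86 other windows with 20 or more peaks the Vegfa window was less far out: 24 held no strong peak, 30 held at least 4, 32 had a higher median score and 17 a higher summed score.

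**Figure D4:**
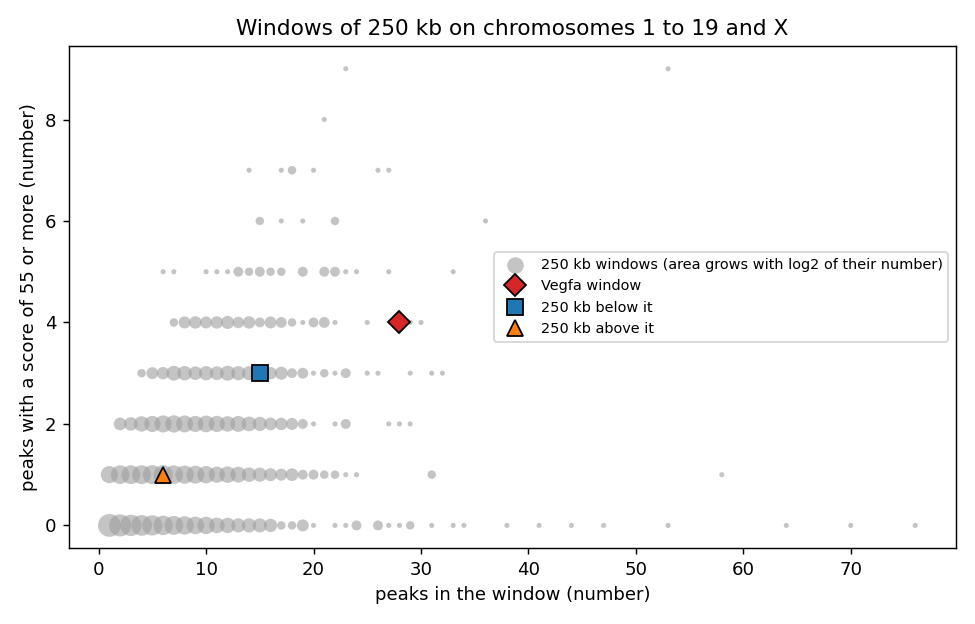
Number of strong peaks (score of 55 or more, vertical axis) against the number of peaks (horizontal axis) in 250 kb windows of chromosomes 1 to 19 and X, with the Vegfa window and its neighbours on either side marked. The Vegfa window holds 28 peaks and 4 strong ones, where 14 of the 27 other windows with at least as many peaks hold no strong one.

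The stretches of 250 kb on either side of the window each held fewer peaks than its 28. Density was also uneven inside the window, at 2.62 peaks per 10 kb within 25 kb of the gene against 1.12 over the whole window. The 250 kb at lower coordinates held 15 peaks, 3 of them strong (20%), with a median score of 23. The 250 kb at higher coordinates held 6 peaks, 1 of them strong (16.7%), with a median of 16. The strong share was 14.3% in the Vegfa window and 10.2% in the list. A score at or above the list median was held by 80% of the lower stretch, 50% of the higher one and 60.7% of the Vegfa window. From counts this small nothing is read. The strongest peaks of the lower and higher stretches scored 110 and 125, below both peaks of the downstream pair. Just outside the window lay the peak from 46040526 to 46041025, which scored 30, and the peak from 46311376 to 46311575, which scored 8. The outermost peaks inside it scored 8 on the low side and 29 on the high side, and neither these nor the peaks just outside were strong.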

How the data were processed

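The 1 peak list of the Ebf1 ChIP-seq library was used, and the whole cell extract was not analysed. Per the labels' protocols, fragments of 275 to 700 bp went through 18 cycles of PCR. The submitters' processing notes name the build mm9 and the tool SAMtools. Not given in the sources used here are the aligner, the peak caller with its threshold, and the use of the extract. The authors deposited 2 whole-number score columns per peak, neither treated as a read count, with no read depth, which is therefore unknown for every peak. Starts lay 1 base past multiples of 25 and ends on them, and coordinates were taken as 1-based, ends included.

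Membership, the gene's position and all settings were chosen with earlier results of these data known. Every peak in the window is given. Strong is the top 10% of the list by score. Windows start 50 kb past multiples of 250 kb. Genes named besides Vegfa are its 5 neighbours on each side in the reference table. The code that counts peaks in windows and clusters and finds motifs was checked on simulated lists with planted numbers, which it returned. No chance level was simulated. The alternatives were other windows, scores, window starts, joining distances and motifs. The work used pandas 2.3.3, numpy 2.4.6 and scipy 1.17.1 under Python 3.11.15, with figures from matplotlib 3.10.9.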

Additional observations from a re-analysis of the deposited data

How the results depend on the processing

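Of 20 alternative values, 13 stayed and 7 moved. A count stayed if it was within 1.5 times. The median score and the share of windows at least as full stayed if they were within a 95% interval. For the median score that interval was 12 to 27. With 1 library and a window selected on these scores, the intervals are no estimate of error and served only as limits. The locus held 63 peaks in a 1 Mb window. In the 250 kb window 17 peaks reached the median score of the list and 4 its top 10%. A wider window can only add peaks and a score limit can only remove them, so the direction of these changes was fixed. With strong set at the top 5% of the list, 2 peaks were strong. By peaks in the top 10% alone the window ranked 48 of 2187. The largest cluster fell to 6 peaks at a joining distance of 5 kb, since some distances inside it are longer. The promoter held 0 matches of the longer palindrome. The rank by all peaks lay between 21 and 26 for windows starting 0, 50, 100, 150 or 200 kb past multiples of 250 kb. Only the other windows were moved there. The Vegfa window stayed in place, so its count of 28 could not change. With a single library, leaving out a replicate was not possible. No paired analysis was possible because only 1 library had values here. Read depth is unknown, and which low scores are chance calls cannot be said.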
